A study of Mus musculus with 12 samples.

Results

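Transcript levels of the amino acid transporter families SLC1, SLC3, SLC6, SLC7, SLC36, SLC38 and SLC43 were followed in mouse granulosa cells, which form the wall of the ovarian follicle around the oocyte, before and 4 h after an ovulatory dose of hormone. The genes were chosen by name alone: every gene whose symbol on the array opens with 1 of these 7 family names was taken, 63 of the 18194 genes measured. They were 7 genes of SLC1, 2 of SLC3, 21 of SLC6, 16 of SLC7, 5 of SLC36, 9 of SLC38 and 3 of SLC43. The letters also took in 3 genes that lie on the strand opposite to a transporter gene (Slc36a1os, Slc6a19os and Slc7a6os), which leaves 60 transporter genes. For the 32 of the 63 genes with several probe sets, the brightest one on average over the 12 arrays stands for the gene.

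Each array carried RNA of granulosa cells pooled from 5 mice, and each of 4 groups had 3 arrays. All females were injected at 24 to 26 days of age with 5 IU of PMSG (a gonadotropin from pregnant mares that makes follicles grow). WT and Ex6DEL mice of the 0 h groups were collected 48 h later; those of the 4 h groups were at that point given 5 IU of hCG (human chorionic gonadotropin, a ligand of the receptor for luteinizing hormone, LH, that triggers ovulation) and were collected 4 h after it. Ex6DEL mice lack exon 6 of Snf2l, the gene Smarca1, which encodes an ATPase of the ISWI chromatin remodellers, and WT mice were littermates. The deletion was made with a ubiquitous Gata-1 Cre line of CD-1 background crossed to a floxed line of 129Sv background, passed to the germline and kept without Cre on 129SV, so the deletion was not limited to granulosa cells. Cells were pressed out of single follicles punctured with a needle. The labels do not state that the 3 arrays of a group were separate pools of mice, so the p-values measure the spread between these arrays, which may be technical.

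Values are log2 intensities, so a difference of 1 is a 2-fold change. They ran from a floor of 2.21 to 18.2, with array medians between 2.75 and 2.91. The threshold for a call was an adjusted p of 0.05 (moderated test of limma, Benjamini-Hochberg over all 18194 genes). Of 10 granulosa cell markers 9 were measured, and Amh was at the floor throughout. Their mean lay at 12.29 to 13.14 in WT at 0 h and 11.89 to 12.31 at 4 h, and at 12.98 to 13.88 in Ex6DEL at 0 h and 11.55 to 11.65 at 4 h, so that it was lower at 4 h with no overlap in Ex6DEL and a slight one in WT; its part in the results was not tested. In WT the granulosa markers went both ways. Fshr (group mean 11.85 to 9.41), Foxl2 (12.62 to 10.40), Amhr2 and Hsd17b1 were lower at 4 h. Inha (16.63 to 17.20), Inhba (16.35 to 17.08), Nr5a2 and Fst were higher. In Ex6DEL all of these were lower at 4 h. Markers of theca and stroma (9 of 10 measured, none at the floor) had a mean of 7.59 to 9.41 on 11 arrays and of 12.30 on Ex6DEL 0 h replicate 1, which also held the highest granulosa mean. Oocyte markers (11 of 12 measured, Figla at the floor) had a mean of 5.86 to 7.71, highest on that same array. The means of endothelial (Pecam1 at the floor), leukocyte, red blood cell (Hba-a1 at the floor) and surface epithelium markers lay between 3.44 and 5.46. The library labelled Ex6DEL 0 h replicate 3 went against its label: the mean of 7 genes that LH induces in these cells (Ereg, Btc, Ptgs2, Pgr, Ptx3, Tnfaip6 and Has2, chosen after values were seen) was 10.69 there, between 3.19 and 5.61 on the other 0 h arrays and between 11.71 and 13.61 on the 4 h arrays. Counts of called genes, and the values of the transporter genes called, are therefore also given without that library. Smarca1 was not called by genotype at 0 h (0.04 log2, 95% interval -1.05 to 1.13) or at 4 h (-0.04, 95% interval -1.13 to 1.05; adjusted p = 1.0 for both, limma), and where its probes lie relative to exon 6 was not examined, so it does not check the genotype labels.

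Amino acid carriers fall into a few mechanisms. SLC7 light chains such as Slc7a5, Slc7a8 and Slc7a11 pair through a disulfide bond with an SLC3 heavy chain, Slc3a2 (4F2hc) or Slc3a1 (rBAT), which brings them to the surface, where they exchange one amino acid for another. The cationic transporters of SLC7 work without a heavy chain, and SLC38 and SLC6 proteins move their substrates with sodium. Some SLC36 proteins do so with protons, and SLC43 proteins by facilitated diffusion. In the follicle, granulosa cells pass amino acids to the oocyte through gap junctions, since the oocyte takes up several of them poorly by itself. Several of these genes are textbook targets of ATF4, the transcription factor induced when amino acids run short, which binds the C/EBP-ATF composite element (CARE) in their promoters; gonadotropins act through cyclic AMP, whose factor CREB binds the cyclic AMP response element (CRE).

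Promoter sequences of 46 of the 63 genes stood in the RefSeq table used here (GRCm38.p6), each from 250 bases before to 50 after the annotated start. Both strands were searched for CARE (TGATGNAA), the full CRE (TGACGTCA) and the CRE core (TGACG, which every full CRE also holds). CARE was found in 4 of the 46 (8.7%), beside 4.51% of all 27025 genes in the table. The full CRE was found in 1 (2.17%, beside 2.03%) and the core in 17 (37%, beside 23%). The stretches below hold the CARE matches of Slc7a11, the member with the largest change, and, for contrast, of 2 members that were not called, and the full CRE of Slc38a6, which fell. Letters in capitals are the match, read 5′ to 3′ on the gene's own strand; a match written TTGCATCA is CARE on the opposite strand.
Slc7a11, chr3:50443614-50443733, minus strand, CARE at positions -66 and, on the opposite strand, -47 from the start: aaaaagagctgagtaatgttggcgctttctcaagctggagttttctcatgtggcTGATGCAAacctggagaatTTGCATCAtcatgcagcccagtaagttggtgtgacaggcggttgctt
Slc7a7, chr14:54417938-54418094, minus strand, CARE at positions -141 and -1: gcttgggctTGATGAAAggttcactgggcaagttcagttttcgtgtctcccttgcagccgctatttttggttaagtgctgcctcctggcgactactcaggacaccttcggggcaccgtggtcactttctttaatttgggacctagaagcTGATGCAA
Slc1a4, chr11:20332710-20332763, minus strand, CARE on the opposite strand at position -4: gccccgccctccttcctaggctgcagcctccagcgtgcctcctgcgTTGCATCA
Slc38a6, chr12:73286698-73286757, plus strand, full CRE at position -121: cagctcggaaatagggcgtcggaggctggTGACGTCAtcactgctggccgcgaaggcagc
Slc7a11 held both CARE copies within a short stretch, 1 on each strand. The remaining CARE match was in Slc6a21, which was above the floor on 1 array only. Of the other genes called below, Slc7a1 held 2 CRE cores and no CARE, none of the 3 motifs was in the window of Slc3a2 or Slc7a8, and Slc6a8, Slc7a2 and Slc38a3 were not searched. These are matches of letters in one window and no evidence of binding.

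In granulosa cells 4 h after hCG, the cystine carrier Slc7a11 rose by 4.96 log2 from 0 h values near background (3.04 by its second probe set), and the heavy chain Slc3a2, the light chain Slc7a8, the cationic carriers Slc7a1 and Slc7a2 and the creatine carrier Slc6a8 rose between 2.25-fold and 6.93-fold. Among the sodium-coupled SLC38 carriers, Slc38a3 and Slc38a6 fell 2.57-fold and 2.60-fold. The folds are of the brightest probe sets, and another probe set gave 2.80 log2 for Slc6a8 and 0.04 for Slc7a2. The calls of Slc7a1, Slc7a2, Slc38a3 and Slc38a6 held in 3, 2, 2 and 2 of the 12 fits that left out an array. These 8 calls come from the hCG response averaged over WT and Ex6DEL with equal weight. They are 12.7% of the 63 genes, beside 9.72% of all genes; 6 were upward (9.52%, beside 3.10%) and 2 downward (3.17%, beside 6.62%). The median change was 0.02 log2 over the 63 genes and -0.01 over all genes. Without the library labelled Ex6DEL 0 h replicate 3, the count was 12 (19.0%, beside 12.2% of all genes), 8 up (12.7%, beside 3.54%) and 4 down (6.35%, beside 8.65%), and all 8 genes named above were among them.

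**Figure D1:**
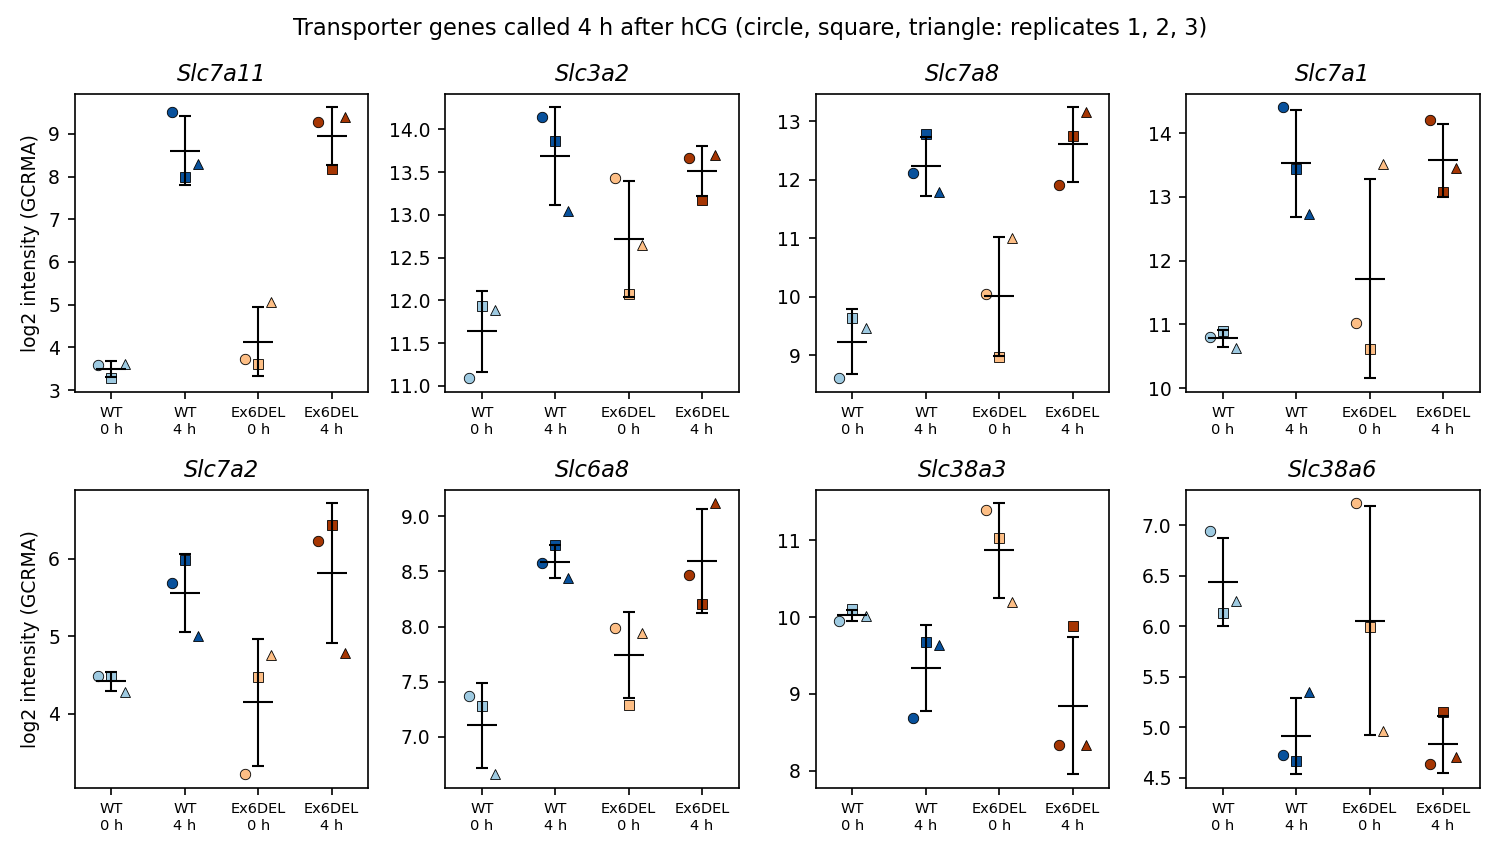
Deposited log2 intensity (vertical axis, a range of its own for each gene) of the 8 transporter genes called in the mean hCG response, by group (horizontal axis), with 3 arrays a group; the horizontal bar is the group mean and the whisker 1 SD. The 6 genes that rose and the 2 that fell, Slc38a3 and Slc38a6, are plotted, and the Ex6DEL 0 h triangle (replicate 3) of Slc7a1 lies at 13.51, among the 4 h arrays.

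Slc7a11 encodes xCT, the light chain that exchanges intracellular glutamate for extracellular cystine and thereby feeds glutathione synthesis. It read 3.60, 3.28 and 3.61 on the WT 0 h arrays and 9.52, 7.99 and 8.30 on the WT 4 h arrays. In Ex6DEL it read 3.73, 3.61 and 5.07 at 0 h and 9.28, 8.18 and 9.40 at 4 h. Every 4 h array was far above every 0 h array in both genotypes, and the highest 0 h value was that of the library labelled Ex6DEL 0 h replicate 3. The mean response was 4.96 log2 (SE 0.37, 95% interval 4.11 to 5.81, adjusted p = 8.77e-04, limma). Slc7a11 was also the only one of the 63 genes called within WT alone (5.11, SE 0.53, adjusted p = 0.00733, limma) and within Ex6DEL alone (4.82, SE 0.53, adjusted p = 0.0126, limma). That is 1 of 63 (1.59%) in each genotype, beside 0.929% of all genes called in WT (0.610% upward) and 2.17% in Ex6DEL (0.566% upward). Without Ex6DEL 0 h replicate 3 the mean response was 5.20; without Ex6DEL 4 h replicate 3 the call within Ex6DEL was lost (adjusted p = 0.0526, limma). The second probe set of Slc7a11 read 2.44 to 3.13 on the 0 h arrays and 5.14 to 6.63 on the 4 h arrays, a mean response of 3.04 (SE 0.28, adjusted p = 0.00246 over 34958 probe sets, limma). The size of the change thus depends on the probe set, and the 0 h values of both lay below 4 on at least 5 of 6 arrays. The call within Ex6DEL held with the replicate number as a block (adjusted p = 0.0304, limma); on the 6 Ex6DEL arrays alone, with the block, no gene of the array was called (Slc7a11 adjusted p = 0.169).

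Slc3a2 encodes 4F2hc, the heavy chain that Slc7a5, Slc7a6, Slc7a7, Slc7a8 and Slc7a11 need to reach the membrane. In WT it read 11.09, 11.93 and 11.89 at 0 h and 14.15, 13.87 and 13.05 at 4 h, with no overlap. In Ex6DEL it read 13.43, 12.07 and 12.65 at 0 h and 13.67, 13.18 and 13.70 at 4 h. There the groups overlapped, because replicate 1 at 0 h exceeded replicate 2 at 4 h. Averaged over genotypes, Slc3a2 rose by 1.43 (SE 0.29, adjusted p = 0.0214, limma), made of 2.05 in WT and 0.80 in Ex6DEL, neither called alone (adjusted p = 0.0612 and 0.354). Without Ex6DEL 0 h replicate 3 it was 1.41 (adjusted p = 0.0326, limma). The call was lost without WT 4 h replicate 1, WT 4 h replicate 2 or Ex6DEL 4 h replicate 3, with adjusted p up to 0.0560 (limma). It was also lost with WT 0 h replicate 1 and Ex6DEL 0 h replicate 3 both left out. Of the 0 h arrays, WT replicate 1 had the next highest mean of the LH-induced genes (5.61). Slc3a1, the heavy chain of kidney and gut, stayed between 2.21 and 2.53 on all arrays.

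Slc7a8 encodes LAT2, an exchanger of neutral amino acids. The WT arrays read 8.61, 9.63 and 9.47 at 0 h and 12.12, 12.78 and 11.79 at 4 h. Those of Ex6DEL read 10.04, 8.97 and 11.01 at 0 h and 11.91, 12.74 and 13.16 at 4 h. All 4 h arrays were above all 0 h arrays, and Ex6DEL 0 h replicate 3 was again the highest of the 0 h arrays. Slc7a8 rose by 2.79 on average (SE 0.39, adjusted p = 0.00611, limma), 2.99 in WT and 2.60 in Ex6DEL, which missed the threshold singly (adjusted p = 0.0522 and 0.0530). Without Ex6DEL 0 h replicate 3 it was 3.04, with both genotypes called (adjusted p = 0.0293 and 0.0209, limma).

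No other light chain was called in the mean response or within either genotype. Slc7a5 encodes LAT1, the exchanger that imports leucine and other large neutral amino acids, and read 9.90, 10.65 and 10.91 in WT at 0 h and 9.35, 10.89 and 10.71 at 4 h. In Ex6DEL Slc7a5 read 11.06, 10.54 and 10.77 at 0 h and 8.91, 10.27 and 10.32 at 4 h. Slc7a5 thus overlapped between times in WT and lay lower at 4 h in Ex6DEL; its mean response was -0.57 (95% interval -1.39 to 0.26, adjusted p = 0.430, limma). Slc7a6, the y+LAT2 light chain, read 8.91, 9.50 and 9.72 then 9.30, 8.82 and 9.04 in WT, and 10.09, 8.54 and 9.28 then 9.13, 9.16 and 8.87 in Ex6DEL. By this probe set the times overlapped in both genotypes (mean response -0.29, 95% interval -0.87 to 0.30). A second probe set of Slc7a6 lay lower on every 4 h array (7.79 to 8.33) than on every 0 h array (8.49 to 10.10). Its mean response of -0.89 (SE 0.26) was not called (adjusted p = 0.0887 over probe sets, limma). Slc7a7, the y+LAT1 light chain, read 5.86, 5.50 and 4.94 then 3.06, 4.48 and 4.50 in WT, and 4.30, 5.05 and 4.51 then 4.26, 3.69 and 4.50 in Ex6DEL. Only the WT arrays separated, and its mean response of -0.94 (SE 0.31) was not called (adjusted p = 0.0961, limma). The other 5 light chains, Slc7a9, Slc7a10, Slc7a12, Slc7a13 and Slc7a15, stayed below 4 on all arrays.

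Slc7a1 encodes CAT-1, the general carrier of arginine, lysine and ornithine. In WT it read 10.81, 10.90 and 10.63 at 0 h and 14.41, 13.44 and 12.73 at 4 h. Ex6DEL arrays gave 11.03, 10.62 and 13.51 at 0 h and 14.20, 13.07 and 13.45 at 4 h. Of the 6 arrays labelled 0 h, 5 lay between 10.62 and 11.03, and the sixth, Ex6DEL replicate 3, lay inside the range of the 4 h arrays. Slc7a1 rose by 2.30 on average (SE 0.52, adjusted p = 0.0299, limma), with 2.75 in WT and 1.85 in Ex6DEL, neither called alone (adjusted p = 0.135 and 0.219). Without Ex6DEL 0 h replicate 3 it was 2.75 (adjusted p = 0.00371, limma). Among the 12 fits that left out an array, the call was kept in 3: those without that library, without WT 4 h replicate 3 and without Ex6DEL 4 h replicate 2. With the replicate number as a block the call was lost. A second probe set of Slc7a1 gave a mean response of 2.31 (adjusted p = 0.0473 over probe sets, limma).

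Slc7a2 encodes CAT-2, a related arginine carrier. It read 4.49, 4.49 and 4.28 at 0 h and 5.69, 5.98 and 5.00 at 4 h in WT. Ex6DEL arrays gave 3.22, 4.47 and 4.76 at 0 h and 6.23, 6.44 and 4.78 at 4 h, where replicate 3 of both times nearly met. The mean response was 1.40 (SE 0.37, adjusted p = 0.0480, limma), and the call held in only 2 of the 12 fits that left out an array, without Ex6DEL 0 h replicate 3 (1.55, adjusted p = 0.0385) and without Ex6DEL 4 h replicate 3. The call of Slc7a2 was also lost with the replicate number as a block. Another probe set of Slc7a2 read 3.74 to 4.42 on all arrays with a response of 0.04 (adjusted p = 0.942, limma), and the mean of its probe sets gave 0.35. Slc7a4, a relative of the CATs, overlapped between times (mean response -0.71, SE 0.42), and Slc7a3 and Slc7a14 stayed below 4.

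Slc6a8 encodes the creatine transporter. It read 7.37, 7.28 and 6.66 at 0 h and 8.58, 8.74 and 8.44 at 4 h in WT. Values in Ex6DEL were 7.99, 7.29 and 7.94 at 0 h and 8.47, 8.20 and 9.12 at 4 h. By this probe set the times were apart in both genotypes, by less in Ex6DEL. Slc6a8 rose by 1.17 on average (SE 0.21, adjusted p = 0.0128, limma), and by 1.22 without Ex6DEL 0 h replicate 3. The second probe set gave a larger response (2.80, SE 0.39, adjusted p = 0.00797 over probe sets, limma), with 2.89 in WT and 2.70 in Ex6DEL.

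Slc6a6 encodes the taurine transporter. It read 8.35, 10.45 and 9.48 at 0 h and 11.99, 11.86 and 11.41 at 4 h in WT. Values in Ex6DEL were 6.48, 10.18 and 10.50 at 0 h and 12.24, 11.48 and 11.64 at 4 h. All 4 h arrays were above all 0 h arrays, but replicate 1 at 0 h was low in both genotypes. The mean response of 2.53 (SE 0.70) was not called (adjusted p = 0.0571, limma); it was called without Ex6DEL 0 h replicate 1 (1.89, adjusted p = 0.0256) and without Ex6DEL 0 h replicate 3 (2.89, adjusted p = 0.0344). Another probe set of Slc6a6 read 9.98 on Ex6DEL 0 h replicate 1, close to its other 0 h arrays, and was called with a smaller response (0.88, SE 0.20, adjusted p = 0.0422 over probe sets, limma).

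Slc6a9 encodes GLYT1, the glycine carrier by which the oocyte takes up glycine. It read 9.19, 9.49 and 9.87 at 0 h and 7.90, 9.0 and 9.11 at 4 h in WT. The Ex6DEL values were 11.06, 9.66 and 9.25 at 0 h and 8.09, 8.34 and 8.59 at 4 h. The 4 h arrays were lower in both genotypes, and the highest value was on Ex6DEL 0 h replicate 1, where the means of the oocyte markers (7.71), the theca and stroma markers (12.30) and the granulosa markers (13.88) were also highest. The mean response of -1.25 (SE 0.34) missed the threshold (adjusted p = 0.0554, limma) and was -0.98 without that array (adjusted p = 0.0615) and -1.43, called, without Ex6DEL 0 h replicate 3 (adjusted p = 0.0312); the part of these markers in it was not tested. Among the other SLC6 genes, Slc6a7 (proline), Slc6a15 (a neutral amino acid carrier), Slc6a18 and Slc6a2 (norepinephrine) reached 4 on at least 1 array, and their mean responses lay between -0.83 and 0.11 with none called. The remaining 13 transporter genes of SLC6, among them the GABA, betaine, dopamine and serotonin carriers Slc6a11, Slc6a12, Slc6a13, Slc6a3 and Slc6a4, stayed below 4.

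Of the 9 SLC38 genes, 3 had a mean response above 0 and 6 below, with a median of -0.65, and 2 were called, both downward. Over all genes, 6.62% were called downward and the median was -0.01, or -0.20 over the 9097 genes above the median level. Slc38a3 encodes SNAT3, a carrier of glutamine, histidine and asparagine, and read 9.95, 10.10 and 10.02 at 0 h and 8.69, 9.68 and 9.63 at 4 h in WT. In Ex6DEL Slc38a3 read 11.39, 11.03 and 10.19 at 0 h and 8.33, 9.88 and 8.33 at 4 h. Each 4 h array was below each 0 h array. The mean response was -1.36 (SE 0.34, adjusted p = 0.0410, limma), with -0.69 in WT and -2.03 in Ex6DEL (adjusted p = 0.579 and 0.0674). In the fits that left out an array, the call held only without Ex6DEL 0 h replicate 3 (-1.53, adjusted p = 0.0266) and without Ex6DEL 4 h replicate 2 (-1.62, adjusted p = 0.0157). Ex6DEL 0 h replicate 1, on which Slc38a3 was highest, was also the array with the highest theca and stroma (12.30) and granulosa (13.88) marker means; without it the response was -1.23 (adjusted p = 0.0839, limma), and the part of those markers in it was not tested. In bulk RNA, fewer cells of a type and less RNA per cell cannot be told apart.

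Slc38a6, an SLC38 gene of less settled substrates, read 6.94, 6.13 and 6.25 at 0 h and 4.72, 4.67 and 5.35 at 4 h in WT. In Ex6DEL it read 7.22, 5.99 and 4.96 at 0 h and 4.64, 5.15 and 4.70 at 4 h. The WT arrays separated, while Ex6DEL 0 h replicate 3 lay among the 4 h values. Its mean response was -1.38 (SE 0.36, adjusted p = 0.0476, limma). It was called in the fits without Ex6DEL 0 h replicate 1 (-1.08) and without Ex6DEL 0 h replicate 3 (-1.65, adjusted p = 0.0116, limma), and in none of the other 10 that left out an array. The call was lost with the replicate number as a block.

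Slc38a10 read 12.39, 13.01 and 13.07 then 11.59, 12.58 and 12.55 in WT, and 14.78, 13.57 and 13.03 then 11.36, 12.60 and 12.29 in Ex6DEL. Its mean response of -1.15 (SE 0.36) was not called (adjusted p = 0.0839, limma) and was called without Ex6DEL 0 h replicate 3 (-1.34, adjusted p = 0.0468); the highest value was again on Ex6DEL 0 h replicate 1. Slc38a1 (SNAT1, a glutamine and alanine carrier) read 8.98, 9.25 and 9.42 then 11.68, 10.87 and 9.88 in WT, and 10.06, 8.86 and 11.10 then 11.39, 10.33 and 11.15 in Ex6DEL. The WT arrays separated and the Ex6DEL arrays did not (mean response 1.27, SE 0.43, adjusted p = 0.110, limma); without Ex6DEL 0 h replicate 3 it was 1.54 and called (adjusted p = 0.0413). Slc38a2 (SNAT2, which responds to amino acid shortage in many cells) read 12.07, 11.79 and 12.12 then 13.62, 12.80 and 11.94 in WT, and 14.22, 11.73 and 13.38 then 13.35, 11.90 and 12.31 in Ex6DEL. Its arrays overlapped in both genotypes (mean response 0.10, 95% interval -0.98 to 1.18). Slc38a5 (SNAT5, a glutamine and glycine carrier) read 11.44, 12.28 and 13.10 then 12.52, 11.92 and 11.90 in WT, and 14.10, 12.92 and 12.88 then 12.54, 11.53 and 12.45 in Ex6DEL (mean response -0.65, 95% interval -1.45 to 0.16). Ex6DEL 0 h replicate 1 held the highest value of Slc38a2, Slc38a3, Slc38a5, Slc38a6 and Slc38a10. Slc38a7 read 7.82, 7.22 and 7.01 then 6.11, 7.30 and 6.59 in WT, and 6.65, 6.56 and 6.58 then 5.47, 6.59 and 5.56 in Ex6DEL (mean response -0.70, SE 0.27, adjusted p = 0.152). Neither it nor the lysosomal arginine sensor Slc38a9 (-0.58, SE 0.50) was called. Slc38a4 stayed near background, at 2.65, 2.77 and 2.76 then 2.95, 3.27 and 2.79 in WT and 2.77, 2.77 and 2.80 then 3.93, 3.0 and 3.38 in Ex6DEL (mean response 0.47, adjusted p = 0.0865).

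**Figure D2:**
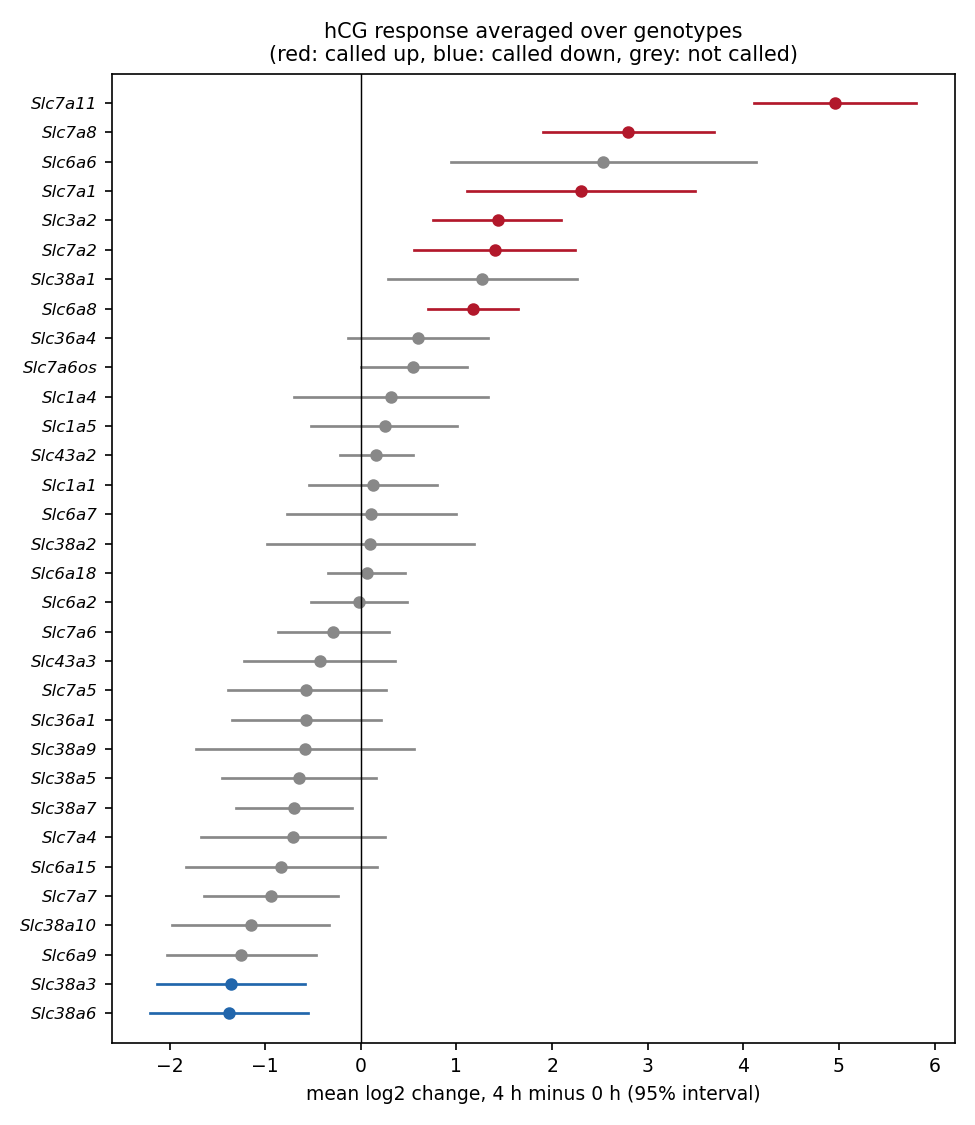
Mean hCG response over both genotypes (horizontal axis, log2 of 4 h minus 0 h, with its 95% interval) of the 32 genes that reached 4 on at least 1 array, one per line. Slc7a11 stands at 4.96, the 8 called genes are in colour, and 15 of the 32 lie below 0.

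None of the SLC1, SLC36 or SLC43 genes was called in the mean response. Slc1a4 (ASCT1), one of the CARE carriers, read 5.91 to 8.33 with a response of 0.32 (95% interval -0.70 to 1.33), and Slc1a5 (ASCT2, a glutamine exchanger) read 4.69 to 6.61 with 0.25 (95% interval -0.52 to 1.01). The neuronal and glial glutamate carriers Slc1a2, Slc1a3, Slc1a6 and Slc1a7 stayed below 4, and Slc1a1, a neuronal and epithelial glutamate carrier, read 2.21 to 3.28 on 11 arrays and 4.55 on Ex6DEL 4 h replicate 2. Of the SLC36 carriers, Slc36a4 gave 0.60 (SE 0.32) and Slc36a1 -0.57 (SE 0.34), and Slc36a2 and Slc36a3 stayed below 4. Of the SLC43 carriers, Slc43a2 (LAT4) read 5.83 to 6.97 and Slc43a3 5.85 to 8.02, and Slc43a1 (LAT3) stayed below 4. A second probe set of Slc43a2 read 5.63, 5.60 and 5.37 then 4.97, 5.15 and 4.84 in WT, a response of -0.54 (SE 0.14). On the Ex6DEL 0 h arrays it read 4.78, 4.95 and 4.89. The 0 h difference of -0.66 (SE 0.14) was not called (adjusted p = 0.735 over probe sets, limma), and the brightest probe set gave 0.24. In all, 31 of the 63 genes stayed below 4 on all 12 arrays (highest value 3.93), 20 of them below 3, and 3 (Slc6a19os, Slc7a10 and Slc7a15) were at the floor throughout, where a change cannot be seen.

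**Figure D3:**
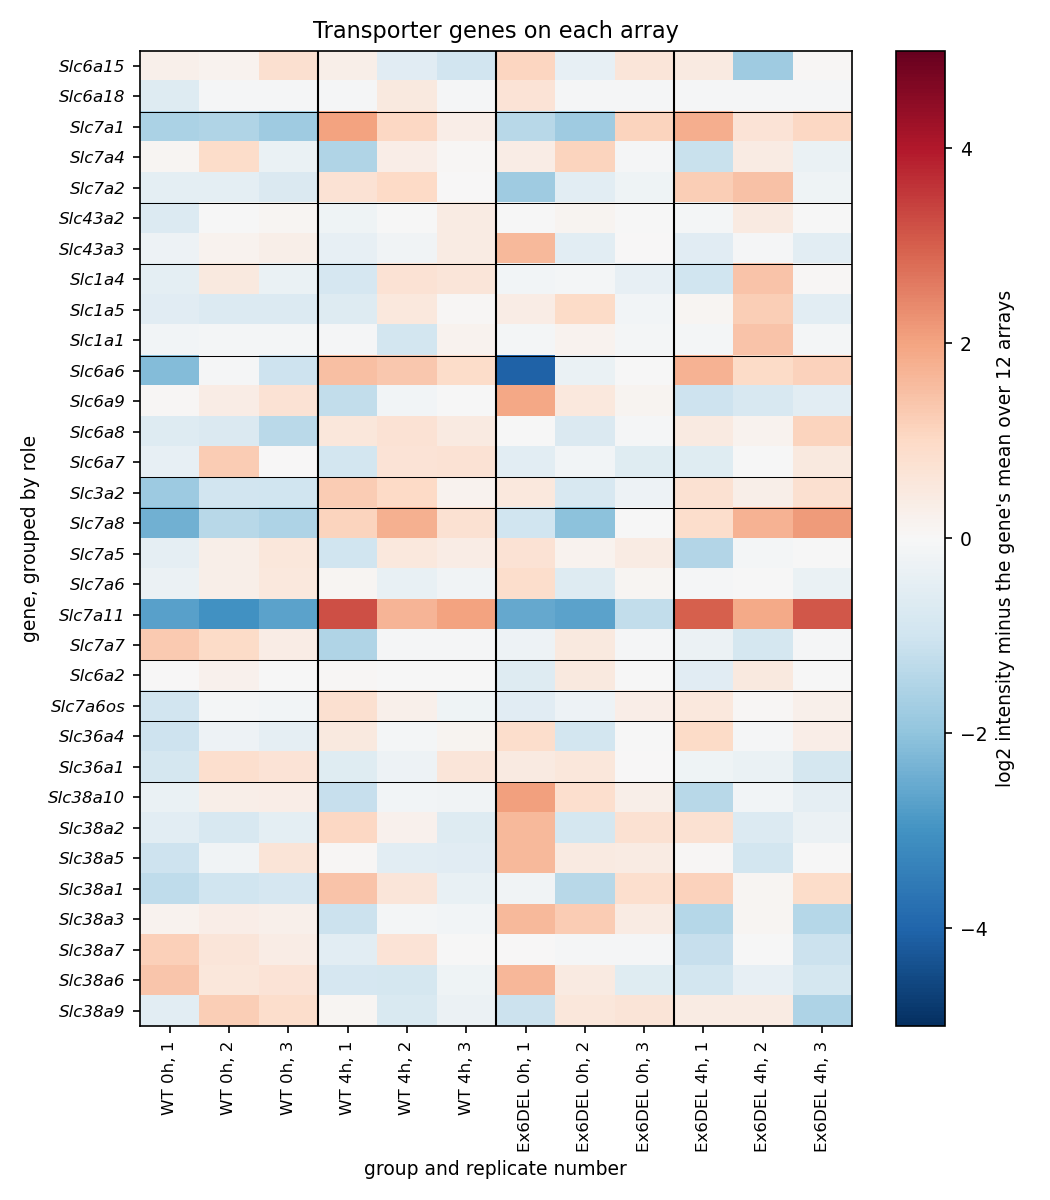
Log2 intensity minus the gene's own mean over the 12 arrays (colour, red above and blue below) for the 32 genes that reached 4, grouped by role (rows) on each array (columns). Slc7a11, Slc7a8 and Slc7a1 are blue at 0 h and red at 4 h except on the column of Ex6DEL 0 h replicate 3, where Slc7a1 is red and Slc7a8 near white; Slc6a6 is lowest and several SLC38 genes are highest on Ex6DEL 0 h replicate 1.

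Counted by separation of arrays, 10 of the 63 genes had all WT 4 h arrays above all WT 0 h arrays and 4 had them below (15.9% and 6.35%, beside 7.52% and 11.4% of all genes). In Ex6DEL the counts were 6 and 6 (9.52% each, beside 5.12% and 14.5%). Over both genotypes, with 6 arrays at each time, 5 genes were above and 2 below (7.94% and 3.17%, beside 2.48% and 5.18%). At an unadjusted p under 0.05, 10 of the 63 genes passed in WT, 12 in Ex6DEL and 15 in the mean response, where 14.4%, 18.9% and 23.1% of all genes did.

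The genotypes were next compared, the question being the part of Snf2l in the response. No transporter gene was called between Ex6DEL and WT at 0 h, at 4 h, or in the interaction, the difference between the hCG responses (limma; 0.0330%, 0.00% and 0.0110% of all genes were called). At an unadjusted p under 0.05, 2 members passed at 0 h, 1 at 4 h and 0 in the interaction, where 5.36%, 1.62% and 3.20% of all genes did, and every other setting run also gave 0 calls. At 0 h, Slc3a2 was 1.08 higher in Ex6DEL (95% interval 0.14 to 2.02, adjusted p = 0.874, limma), with all 3 Ex6DEL arrays above all 3 WT arrays, and 1.11 without the library labelled Ex6DEL 0 h replicate 3 (95% interval -0.03 to 2.25). Slc1a5 likewise did not overlap at 0 h: it read 4.80, 4.69 and 4.69 in WT and 5.75, 6.32 and 5.23 in Ex6DEL (1.04, 95% interval -0.05 to 2.13), and 1.31 without that library (95% interval 0.09 to 2.53, adjusted p = 0.565, limma). Arrays at 0 h were apart upward for 3 members and downward for 1 (4.76% and 1.59%, beside 3.96% and 2.45% of all genes), and at 4 h for none, beside 0.951% and 2.02%. Beside Slc3a2, the unadjusted passes were Slc43a1 at 0 h and Slc36a3 at 4 h, both near background. Slc43a1 read 2.21, 2.26 and 2.26 in WT and 2.43, 2.57 and 2.26 in Ex6DEL at 0 h (0.18, SE 0.07), and 2.26, 2.26 and 2.32 then 2.26 on all 3 Ex6DEL arrays at 4 h. Slc36a3 read 3.22, 3.15 and 2.81 in WT and 2.81, 2.81 and 2.54 in Ex6DEL at 4 h (-0.34, SE 0.11), and 2.81 on all 6 arrays at 0 h.

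For Slc3a2 the interaction was -1.25 (95% interval -2.58 to 0.08, adjusted p = 0.871, limma), the Ex6DEL response being the smaller, and -1.29 without Ex6DEL 0 h replicate 3. After quantile normalization it was -0.26 and the difference at 0 h was 0.34. That scaling also moved the median interaction of the 9097 genes above the median level from -0.32 to -0.01, so the size of the Slc3a2 difference rests on the scale. Ex6DEL 0 h replicate 1 held the highest 0 h value of Slc3a2 (13.43) and the highest theca and stroma marker mean (12.30). Leaving that array out makes both Slc3a2 differences smaller, and the part of those markers in them was not tested. For Slc38a3 the interaction was -1.33 (95% interval -2.88 to 0.22), -0.75 after quantile normalization, and -1.67 without Ex6DEL 0 h replicate 3 (95% interval -3.24 to -0.11, adjusted p = 0.709, limma). For Slc7a11 it was -0.29 (95% interval -1.99 to 1.41) and for Slc7a8 -0.40 (95% interval -2.19 to 1.40), intervals that hold differences of more than 2-fold either way; without that library both changed sign, to 0.17 and 0.11. Of the 32 genes that reached 4, 26 had a response of the same sign in both genotypes, and 6 of the 8 called genes had a response of smaller size in Ex6DEL. Neither count was made over all genes. The median interaction, a signed difference, was -0.31 over the 32 genes and -0.32 over the 9097 genes above the median level. It does not measure the size of the responses, so it gives no background for the count of 6. By the second probe set of Slc6a8, the change over all arrays was 2.89 in WT and 2.70 in Ex6DEL (interaction -0.19, SE 0.78). With Ex6DEL 0 h replicate 3 left out, 3 of the 8 called genes had the smaller response in Ex6DEL by their brightest probe sets. They were Slc3a2 (0.77, beside 2.05 in WT), Slc6a8 (0.96, beside 1.48) and Slc7a1, by a margin lost in rounding (2.75 in both). In that fit 6 members were called within Ex6DEL (9.52%, beside 6.90% of all genes), 3 up (4.76%, beside 1.58%) and 3 down (4.76%, beside 5.32%), Slc7a11 (5.28), Slc7a8 (3.10), Slc7a1 (2.75), Slc38a3 (-2.37) and Slc38a6 (-1.77) among them.

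**Figure D4:**
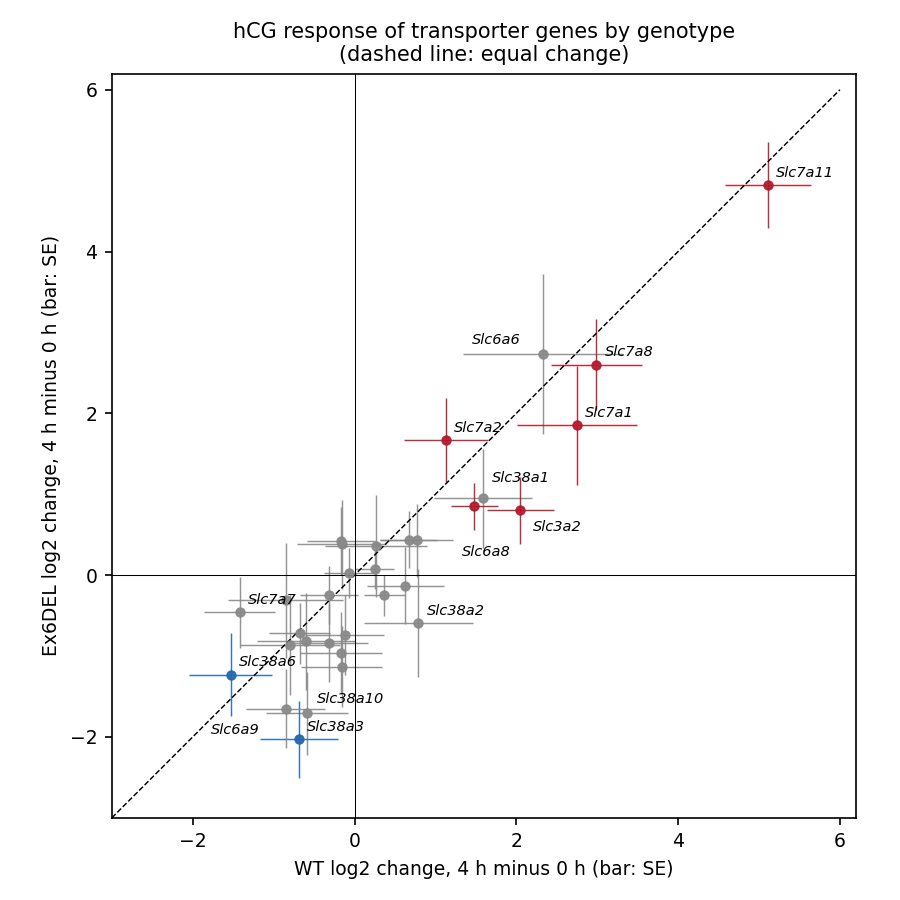
Log2 change from 0 h to 4 h in WT (horizontal axis) and in Ex6DEL (vertical axis) of the 32 genes that reached 4; bars are 1 SE and the dashed line marks equal change. Red and blue points are the genes called up and down in the mean response; Slc7a11 lies at 5.11 and 4.82, and Slc3a2 at 2.05 and 0.80.

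Genes that use the same amino acids were listed beside the transporters, with counts of called genes in the mean hCG response; some genes stand in more than 1 list. Over all genes, 3.10% rose and 6.62% fell. Among 38 measured genes of amino acid metabolism (41 listed), 5 rose (13.2%) and 4 fell (10.5%), and the median change was -0.09 log2. Gclc, the rate-limiting enzyme of glutathione synthesis, which joins glutamate to the cysteine that Slc7a11 imports as cystine, read 8.71, 8.79 and 8.84 at 0 h and 12.11, 12.18 and 11.41 at 4 h in WT. In Ex6DEL Gclc read 9.06, 9.26 and 11.05 at 0 h and 12.06, 11.32 and 11.83 at 4 h (mean response 2.53, SE 0.34, adjusted p = 0.00551, limma). Odc1, the ornithine decarboxylase that starts polyamine synthesis, read 11.18 to 12.13 then 14.66 to 15.85 in WT and 11.55 to 14.17 then 14.79 to 15.52 in Ex6DEL (mean response 3.17, SE 0.46, adjusted p = 0.00636, limma). Gclc and Odc1 separated in both genotypes, and both were highest of the 0 h arrays on Ex6DEL replicate 3; without it they rose by 2.85 and 3.54. Gpt2, a mitochondrial alanine transaminase, rose by 2.65 (SE 0.30, adjusted p = 0.00340) and was the one listed gene called in both genotypes. Abat, which breaks down GABA, fell by 1.42 (SE 0.17, adjusted p = 0.00428). Bckdha, of branched-chain amino acid breakdown, fell by 1.33 on average (adjusted p = 0.0143) and was also called within Ex6DEL (-1.75, adjusted p = 0.0450, limma).

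Of 24 measured genes of the GCN2 and ATF4 amino acid response (25 listed), 3 rose (12.5%) and 2 fell (8.33%), with a median of 0.34. Gpt2, the serine synthesis enzyme Psat1 (1.65, adjusted p = 0.0220, limma) and the stress protein Nupr1 (1.37, adjusted p = 0.0125) rose; Shmt2, a mitochondrial glycine enzyme (-1.13, adjusted p = 0.0154), and Aldh18a1, of proline synthesis (-1.37, adjusted p = 0.0248), fell. Atf4 itself read 10.56, 11.49 and 11.18 then 12.19, 13.11 and 12.09 in WT, and 10.11, 11.97 and 12.32 then 11.96, 12.30 and 12.54 in Ex6DEL. Its change of 1.09 was not called (adjusted p = 0.132, limma), nor was that of Asns, the asparagine synthetase that ATF4 induces (0.15, adjusted p = 0.672); both were picked after their values were seen. Of 19 measured cytosolic aminoacyl-tRNA synthetases (20 listed), which load amino acids onto tRNA, Cars (1.60, adjusted p = 0.0181), Iars (0.61, adjusted p = 0.0212) and Gars (0.58, adjusted p = 0.00857) rose (15.8% of the list) and none fell, with a median of 0.18.

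Of 35 measured genes of amino acid sensing by mTORC1 (37 listed), the growth kinase complex that amino acids switch on at the lysosome, 1 rose (2.86%) and 3 fell (8.57%), with a median of -0.23. Rragd, a Rag GTPase that recruits mTORC1, read 6.64, 5.45 and 4.37 then 10.97, 10.79 and 9.65 in WT, and 3.94, 5.75 and 8.36 then 10.53, 9.93 and 10.49 in Ex6DEL. All 4 h arrays were above all 0 h arrays, and the response was 4.64 (SE 0.73, adjusted p = 0.00834, limma), or 5.23 without Ex6DEL 0 h replicate 3. Lamtor1 and Lamtor5, which anchor the Rag proteins, and Sesn1, a leucine-sensing inhibitor, fell by 1.09, 0.80 and 1.51. Of 21 measured carriers of amino acids and peptides outside the 7 families (23 listed), none rose and 5 fell (23.8%), with a median of 0.00. They were the mitochondrial aspartate and glutamate carriers Slc25a12 (-1.44, adjusted p = 0.00860, limma) and Slc25a13 (-0.77, adjusted p = 0.0379), the mitochondrial glutamate carrier Slc25a18 (-1.71, adjusted p = 0.0388), and the lysosomal exporters Ctns (-1.49, adjusted p = 0.0231) and Slc66a1 (-0.48, adjusted p = 0.0230). Slc25a18 read 2.28 to 2.99 at 4 h, near the floor, and was highest (5.61) on Ex6DEL 0 h replicate 1. The group mean of Slc66a1 went from 5.67 to 4.79 in WT and from 4.86 to 4.78 in Ex6DEL. That of Slc25a13 went from 8.24 to 7.09 in WT and from 8.38 to 7.98 in Ex6DEL. The median over all genes was -0.01 in the mean hCG response, and -0.20 over the 9097 genes above the median level, near the -0.23 of the mTORC1 list. No gene of the 5 lists was called by genotype at 0 h, at 4 h or in the interaction (limma). An unadjusted p under 0.05 was reached by 10, 3 and 6 of the 131 genes, in that order. That is 7.63%, 2.29% and 4.58%, beside 5.36%, 1.62% and 3.20% of all genes. Within WT alone, Gclc, Odc1, Gpt2 and Gars rose and Slc66a1 fell; within Ex6DEL alone, Gpt2 rose and Abat, Bckdha, Slc25a12 and Lamtor5 fell. Without Ex6DEL 0 h replicate 3, 10 of the 131 genes rose and 18 fell in the mean response (7.63% and 13.7%, beside 3.54% and 8.65% of all genes), with all 23 calls kept, and 4 rose and 11 fell within Ex6DEL (3.05% and 8.40%, beside 1.58% and 5.32%).

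**Figure D5:**
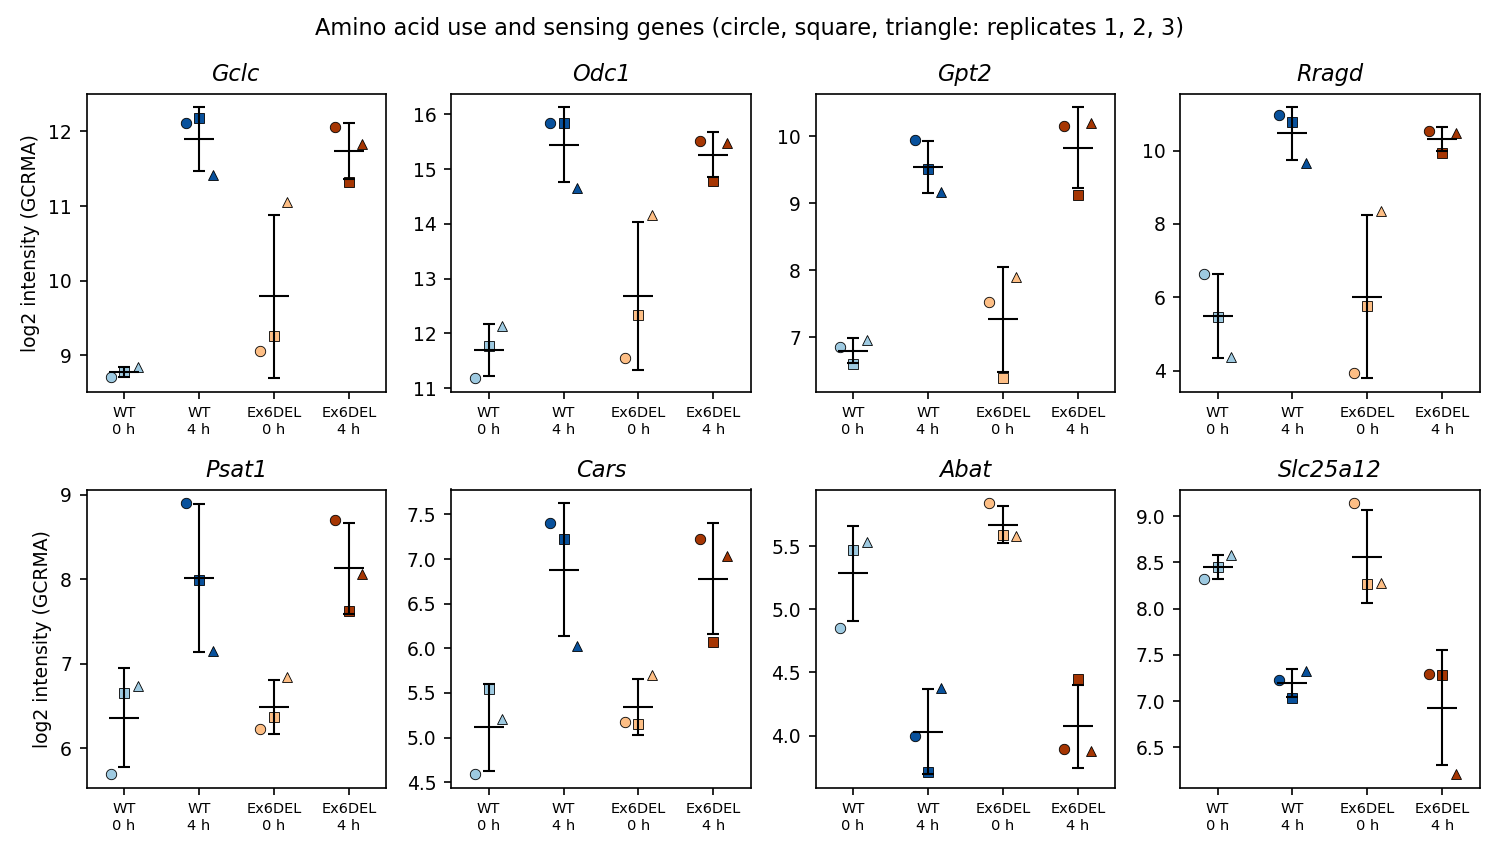
Deposited log2 intensity (vertical axis, a range of its own for each gene) of 8 genes of amino acid use and sensing, by group (horizontal axis), 3 arrays a group, with the group mean and 1 SD. Gclc, Odc1, Gpt2, Rragd, Psat1 and Cars lie higher at 4 h, Abat and Slc25a12 lower, and the Ex6DEL 0 h triangle (replicate 3) of Gclc and Odc1 lies above the other 0 h arrays.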

How the data were processed

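Pooled granulosa cell RNA was measured on 12 Affymetrix mouse expression arrays after a whole-transcript labelling assay, per the labels. The deposited table holds log2 intensities for 45101 probe sets, made by the authors with GCRMA, per the submitters' processing notes (version not given in the sources used here); GCRMA removes background estimated from probe sequence, scales the arrays to each other and gives 1 value per probe set. That the scale is log2 was read from the values. Of these probe sets, 34958 had exactly 1 symbol in the platform annotation; 932 with several and 9211 unlisted were left out. Per array, 36.4% to 40.5% of values were within 0.1 of the floor.

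All 12 arrays entered one linear model (limma 3.58.1, R 4.3.3, functions lmFit and eBayes, residual degrees of freedom 8, prior 0.626) in 4 groups of 3, with two-sided tests adjusted over 18194 genes by Benjamini-Hochberg. The script was tested on simulated data. The number of arrays limits the precision. Replicate numbers were not taken as pairs in this model. Same-numbered arrays of different groups correlated from -0.31 to 0.66 over 18 pairs, 11 of them over 0.1. Arrays of different numbers correlated from -0.57 to 0.40, and 8 of 12 arrays correlated best with one of their own number. The numbers thus carried some shared variation that the main model leaves out. All 3 pairs of Ex6DEL 0 h and 4 h arrays were over 0.1 (0.14, 0.35 and 0.22), so that response is also given with a block. Values on every array are given for genes called in any contrast, those with the 12 highest means, the 12 smallest p of the mean response and the 4 smallest p of other contrasts; of each pathway list, up to 4 called genes are named per contrast (all where 5 or fewer were called), and for the genotype comparisons counts alone. The members, lists and tests were chosen with earlier results of these data known. Promoters were taken from RefSeq GRCm38.p6; the deposited files name no build, so no other coordinates are given. The alternatives were other scalings, filters, probe-set rules, moderation, array weights, a replicate block and arrays left out.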

Additional observations from a re-analysis of the deposited data

How the results depend on the processing

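The main counts of members called were 1 within WT, 1 within Ex6DEL and 8 in the mean hCG response. Within WT the count was 2 after quantile normalization, 3 after a shift to one median, 5 among genes above the median level, 3 with the mean of all probe sets, 7 with array weights, and 1 to 3 with an array left out. Within Ex6DEL it was 3, 3, 6 and 2 under the first 4 of these, 5 with replicate 1 of WT 0 h and replicate 3 of Ex6DEL 0 h left out at once, and 0 to 6 with a single array left out (replicate 3 of Ex6DEL at 4 h gave the lowest count and at 0 h the highest). In the mean response it was 13 with array weights (8 up, 5 down), 5 with the replicate number as a block (4 up, 1 down), and 3 (without WT 4 h replicate 1 or 2) to 12 (without Ex6DEL 0 h replicate 3) with an array left out; under the other 8 settings it was 6 to 12. The block left 1 call in each genotype and lost the mean-response calls of Slc7a1, Slc7a2 and Slc38a6 (adjusted p = 0.0504, 0.0621 and 0.0660, limma); 8 of 12 arrays correlated best with one of their own number. On the Ex6DEL arrays alone with the block, added after the data had been seen, 0 members and 0 of all genes were called (limma; 6 members, 9.52%, and 14.4% of all genes had an unadjusted p under 0.05). Testing every probe set by itself, added after the data had been seen, gave 6 members up and 0 down in the mean response. Slc6a6 was among these 6, and the calls of Slc7a2, Slc38a3 and Slc38a6 were lost (adjusted p = 0.0631, 0.0542 and 0.0627, limma). The mean response of Slc7a11, Slc7a8 and Slc6a8 was called under all 21 other settings run for single genes, that of Slc3a2 under 17, Slc7a1 11, Slc38a3 10, Slc38a6 8 and Slc7a2 7. Genotype and interaction counts were 0 under all settings. The interactions of Slc7a11 and Slc7a8 changed sign: that of Slc7a11 was 0.12 with WT 0 h replicate 1 and Ex6DEL 0 h replicate 3 both out, and -0.60 to 0.17 with a single array left out; that of Slc7a8 was 0.13 after quantile normalization, 0.05 with array weights, 0.42 with both arrays out, and -0.92 to 0.11 with a single array left out. Small mean responses, none called, also changed sign: with a single array left out, Slc1a1 ran from -0.13 to 0.29, Slc38a2 from -0.24 to 0.38, Slc6a18 from -0.04 to 0.19, Slc6a2 from -0.17 to 0.12 and Slc6a7 from -0.06 to 0.38. With both arrays out Slc6a18 and Slc6a7 were -0.10 each, Slc6a7 was -0.23 with array weights, and Slc6a2 was 0.12 with the mean of its probe sets. The cause of these shifts was not tested. Signal near the floor limits what can be seen for the 31 genes below 4.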
